A study of Mus musculus with 6 samples.

Results

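The genes described here encode the membrane proteins that carry glucose, fructose, urate and lactate across cell membranes in mouse liver tumors. They are 10 genes of the 34685 listed in the deposited normalized table. The 7 genes of the Slc2a family (Slc2a1, Slc2a2, Slc2a3, Slc2a4, Slc2a5, Slc2a8 and Slc2a9), Slc16a1, Slc16a3 and Bsg were taken by symbol from that table and by gene identifier from the raw counts. The rule used gene names and no measured value. The genes, the gene lists and the tests were nevertheless chosen with earlier results of these data known. RNA came from tumors of HCA-1 cells, a murine hepatocellular carcinoma (HCC) line, grown in the livers of male C3H mice (C3H/HeNCrNarl in the study's methods) aged 6 to 8 weeks at implantation. The control group held 3 tumors of untreated mice (replicates 5, 6 and 7). The treated group held 3 tumors of mice given GOx-DOX-LGP (replicates 1, 2 and 5), a nanogel that carries glucose oxidase (GOx), an enzyme that consumes glucose, and the cytotoxic drug doxorubicin (DOX). The nanogel was injected intravenously on days 18, 19 and 20. The labels place the transcriptome analysis on day 17 after 3 h of circulation. The study's methods give these injection days for tumors used in quantitative PCR, collected on the day after the last injection. Its sequencing section gives no schedule, and another experiment of the study used more injections. The interval between dosing and sampling is therefore uncertain. The control mice are labelled as untreated and received no empty nanogel according to these labels, no group received GOx or DOX alone, all tumors came from a single cell line, and no library of tumor-free liver was part of the series.

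Glucose enters cells through facilitative transporters of the GLUT family. GLUT2, encoded by Slc2a2, is a low-affinity, high-capacity transporter that hepatocytes use to take up glucose after a meal and release it during fasting. GLUT1 (Slc2a1) and GLUT3 (Slc2a3) have a higher affinity, serve basal uptake in many other cells, and are often abundant in tumors, where hypoxia-inducible factors raise GLUT1. Lactate and pyruvate cross the membrane together with a proton through monocarboxylate transporters. MCT1 (Slc16a1) works in either direction at low lactate, MCT4 (Slc16a3) is suited to export from glycolytic cells and is another hypoxia-inducible gene, and both need basigin (Bsg, CD147) to reach the cell surface.

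The starts of the hepatocyte glucose transporter gene Slc2a2, of Slc2a1 and of the lactate transporter genes Slc16a1 and Slc16a3 are shown because the comparison between these genes runs through the results. Each is the 250 bases upstream of the RefSeq gene start (GRCm38.p6), 5′ to 3′ on the strand of the gene. Capitals mark ACGTG on either strand, a form of the core of the element that hypoxia-inducible factors bind. The Slc2a1 window is chr4:119108495-119108744 (plus strand). Its last bases lie inside the gene model that GENCODE gives, which starts at 119108711.
Slc2a1: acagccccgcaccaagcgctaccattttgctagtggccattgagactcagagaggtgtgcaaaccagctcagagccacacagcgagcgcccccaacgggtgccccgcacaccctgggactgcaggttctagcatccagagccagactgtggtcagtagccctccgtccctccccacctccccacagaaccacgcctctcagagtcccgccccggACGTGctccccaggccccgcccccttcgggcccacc
The Slc16a3 window is chr11:120948817-120949066 (plus strand), which lies inside the longer gene model that GENCODE gives.
Slc16a3: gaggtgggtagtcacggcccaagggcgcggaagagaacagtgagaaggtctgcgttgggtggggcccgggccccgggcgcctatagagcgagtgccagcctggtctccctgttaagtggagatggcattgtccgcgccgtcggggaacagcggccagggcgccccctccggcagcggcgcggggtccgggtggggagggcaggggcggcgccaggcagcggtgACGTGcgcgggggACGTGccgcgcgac
The Slc16a1 window is chr3:104638414-104638663 (plus strand).
Slc16a1: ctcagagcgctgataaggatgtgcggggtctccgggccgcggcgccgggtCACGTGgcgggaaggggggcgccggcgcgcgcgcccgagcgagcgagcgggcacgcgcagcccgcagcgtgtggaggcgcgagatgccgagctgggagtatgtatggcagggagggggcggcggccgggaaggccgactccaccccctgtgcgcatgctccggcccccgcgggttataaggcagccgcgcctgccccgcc
The Slc2a2 window is chr3:28697653-28697902 (plus strand).
Slc2a2: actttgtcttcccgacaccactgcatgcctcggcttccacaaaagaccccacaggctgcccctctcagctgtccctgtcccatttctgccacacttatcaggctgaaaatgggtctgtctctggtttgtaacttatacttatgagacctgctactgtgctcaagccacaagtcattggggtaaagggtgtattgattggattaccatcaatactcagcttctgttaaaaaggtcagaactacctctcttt
ACGTG stood at 1 place in the Slc2a1 window, 36 bases before the RefSeq start, where it spans the start of the GENCODE model. The Slc16a3 window held it at 2 places, 27 and 14 bases before the RefSeq start. In the Slc16a1 window it stood at 1 place, as CACGTG, which reads ACGTG on both strands. The letters were not found in the windows of Slc2a2, Slc2a5, Slc2a8 and Slc2a9. Thus 3 of the 7 transporter genes with a promoter in the table held ACGTG, and 16.6% of the 32851 promoters in it did. GC content was 47.2% in the Slc2a2 window, 66.4% in the Slc2a1 window, 76.4% in the Slc16a1 window and 73.6% in the Slc16a3 window. These matches describe letters only, and whether any factor binds at them, CACGTG included, was not tested.

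Library totals ranged from 15529940 to 18401178 counts, and 3 counts, taken as the detection floor, corresponded to between 0.132 and 0.323 CPM (counts scaled to a common library size, here by trimmed mean of M-values, TMM). All levels below are CPM on this scale. Comparing a gene between tumors rests on this scaling, whose factors ran from 0.569 in control 7 to 1.24 in control 5. The control tumors differed widely among themselves. The 20 hepatocyte markers, led by albumin (Alb) and the apolipoproteins Apoa1 and Apoa2, summed to 854 CPM in control 5, 151920 CPM in control 6 and 237370 CPM in control 7. They summed to 4319, 1831 and 2488 CPM in treated replicates 1, 2 and 5. Alb alone was at 353 CPM in control 5 against 73804 and 128240 CPM in controls 6 and 7. Controls 6 and 7 were therefore rich in hepatocyte RNA, while control 5 had less of it than any treated tumor. In bulk tumor RNA, fewer cells of a type and less RNA per cell cannot be told apart. The labels do not state whether replicates come from separate mice, so p-values measure the spread between these samples, which may be partly technical.

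In the edgeR quasi-likelihood test over all 15374 genes that passed the count filter, 0 genes passed an adjusted p of 0.05 (Benjamini-Hochberg), which is 0.0% called. The smallest adjusted p was 0.247, and 2685 genes (17.5%) had an unadjusted p under 0.05. Of the 10 transporter genes, 8 passed the filter, 0 were called and 3 had an unadjusted p under 0.05. Those were Slc2a3 with higher and Slc2a2 and Slc2a9 with lower values after GOx-DOX-LGP, against 2.87% of all genes with higher and 14.6% with lower values. The median log2 fold change, as GOx-DOX-LGP minus control, was 0.04 over the 8 tested transporter genes and 0.02 over all genes. Limma voom without weights also called 0 genes (1133 at an unadjusted p under 0.05), DESeq2 called 1739 genes (10.5%) and 4 of the transporter genes, with 0.684% of all genes called higher and 9.85% lower. Voom with sample quality weights called 9254 genes (60.2%, with 29.2% higher and 30.9% lower) and 6 of the transporter genes. Without control 5 the edgeR test called 7745 genes (47.7%, with 22.2% higher and 25.5% lower) and 8 of the 10 transporter genes, 3 of them higher and 5 lower. Leaving out any other single library gave 0 called genes. The plot of transporter levels in each tumor shows the position of control 5 for each gene.

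**Figure D1:**
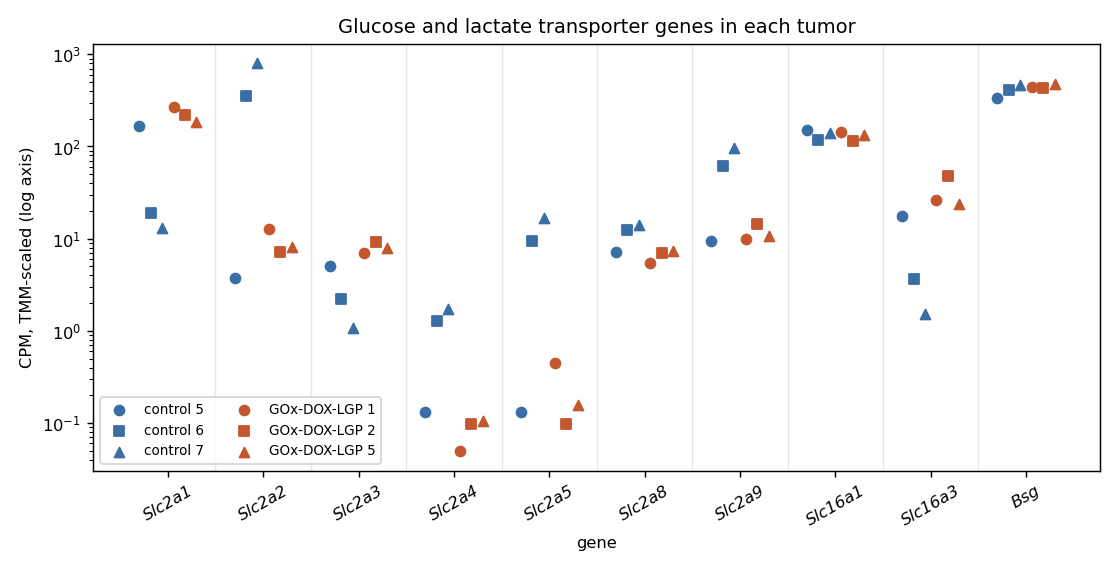
Level of each transporter gene (vertical axis, TMM-scaled CPM, logarithmic) in each of the 6 tumors. Blue symbols are the control tumors and orange symbols the GOx-DOX-LGP tumors. For Slc2a2, control 5 lies at 3.73 CPM, below all treated tumors, and controls 6 and 7 lie at 351 and 797 CPM, while Slc16a1 and Bsg lie close together in all 6.

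Slc2a2 (ENSMUSG00000027690, chromosome 3, 28697903 to 28731359 on GRCm38, plus strand), the hepatocyte glucose transporter, had the widest range among the tested transporter genes. It was at 3.73 CPM in control 5, 351 CPM in control 6 and 797 CPM in control 7, and at 12.9, 7.15 and 8.12 CPM in treated replicates 1, 2 and 5. The highest library stood 214-fold above the lowest, both of them controls. Controls 6 and 7 were high, all treated tumors were low, and control 5 was lower still, so the groups overlapped. The group means were 384 ± 398 CPM (SD, n = 3) in the control group against 9.37 ± 3.05 CPM (SD, n = 3) after GOx-DOX-LGP. The edgeR log2 fold change was -5.35 (SE 1.65, unadjusted p = 0.0171, adjusted p = 0.247), and its 95% confidence interval ran from -9.37 to -1.33. The direction of this value rested on controls 6 and 7. With control 5 as the only control it was 1.34 (SE 0.45, adjusted p = 0.885, with the spread estimated from the treated tumors alone and the lone control assumed to vary as they did), and without control 5 it was -5.90 (SE 0.45, adjusted p = 8.57e-05). With the mean log2 CPM of the hepatocyte markers as a covariate it was -0.27 (SE 0.28, adjusted p = 0.881).

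Slc2a2 was also set against the hepatocyte markers within each library. The log2 ratio of Slc2a2 to the summed hepatocyte markers was -7.83, -8.76 and -8.22 in controls 5, 6 and 7, against -8.39, -7.99 and -8.26 in treated replicates 1, 2 and 5. All 6 values lay within 0.93 log2 units, with overlapping groups. The level of Slc2a2 thus varied 214-fold between tumors and its share of the hepatocyte signal by less than 1 log2 unit. Whether hepatocyte content sets the level of Slc2a2 was not tested.

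Slc2a1 (ENSMUSG00000028645, chromosome 4, 119108711 to 119137983, plus strand), the basal-uptake transporter GLUT1, was low where Slc2a2 was high. It was at 168 CPM in control 5, 19.0 CPM in control 6 and 12.9 CPM in control 7, and at 271, 220 and 183 CPM in treated replicates 1, 2 and 5. Every treated tumor was above every control, but control 5 was only just below the lowest treated tumor, and controls 6 and 7 were far below. The means were 66.7 ± 88.0 CPM (SD, n = 3) in the control group against 225 ± 44.2 CPM (SD, n = 3) after GOx-DOX-LGP. The log2 fold change was 1.75 (SE 1.00, unadjusted p = 0.128, adjusted p = 0.384, edgeR). It was 3.84 without control 5 (SE 0.30, adjusted p = 9.39e-05), 0.43 with control 5 as the only control (SE 0.27, adjusted p = 0.885) and 1.24 with the hepatocyte covariate (SE 0.33, unadjusted p = 0.00614, adjusted p = 0.519). An antisense gene, Gm12868, overlaps an exon of Slc2a1 and shares 1.54% of its 50-base stretches, and the strand setting of the counting is not given in the sources used here.

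Slc2a3 (ENSMUSG00000003153, chromosome 6, 122727809 to 122801640, minus strand), the high-affinity transporter GLUT3, followed Slc2a1 in direction at a lower level. Its values were 5.0, 2.20 and 1.08 CPM in controls 5, 6 and 7, against 7.07, 9.21 and 8.01 CPM in treated replicates 1, 2 and 5. All treated tumors again lay above all controls, with control 5 nearest to them. The means were 2.76 ± 2.02 CPM (SD, n = 3) and 8.10 ± 1.07 CPM (SD, n = 3), and the log2 fold change was 1.52 (SE 0.56, unadjusted p = 0.0342, adjusted p = 0.256, edgeR). It was 2.31 without control 5 (adjusted p = 0.00334), 0.71 with control 5 as the only control (adjusted p = 0.885) and 1.02 with the hepatocyte covariate (adjusted p = 0.688). The 3 genes with no overlap and higher values after treatment were Slc2a1, Slc2a3 and Slc16a3, and 8.87% of all tested genes were in that class.

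**Figure D2:**
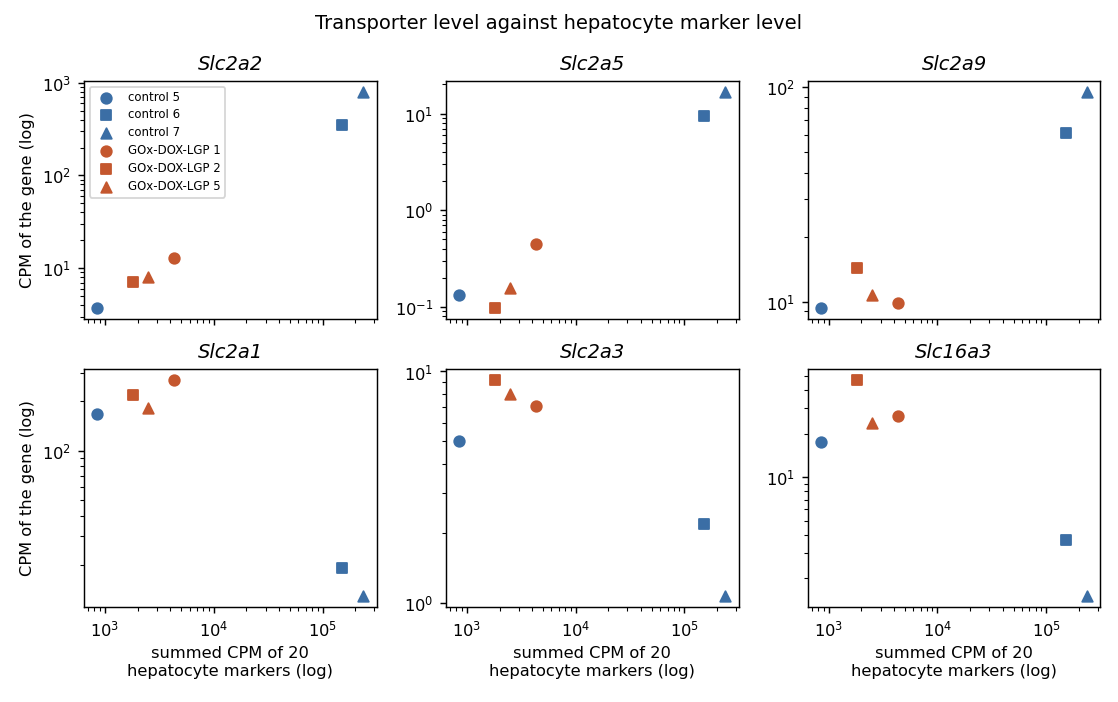
Level of 6 transporter genes (vertical axes, TMM-scaled CPM, logarithmic) against the summed level of 20 hepatocyte markers (horizontal axes, CPM, logarithmic), 1 point per tumor. Controls 6 and 7 stand alone at the right with high Slc2a2, Slc2a5 and Slc2a9 and low Slc2a1, Slc2a3 and Slc16a3, and control 5 lies at the far left at 854 CPM of markers beside the treated tumors.

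The balance between the hepatocyte transporter and Slc2a1 and Slc2a3 was measured as a log2 ratio within each library, which needs no scaling between libraries. Per kilobase of exon, Slc2a2 to Slc2a1 was -6.20 in control 5, 3.49 in control 6 and 5.23 in control 7, and -5.11, -5.65 and -5.21 in treated replicates 1, 2 and 5. Slc2a2 transcripts therefore outnumbered Slc2a1 transcripts in controls 6 and 7, and Slc2a1 transcripts outnumbered Slc2a2 transcripts in the other 4 tumors. The difference between the group means was -6.16 log2 units, with a two-sided exact permutation p of 0.4. Per kilobase, Slc2a2 to Slc2a3 was -0.09, 7.62 and 9.79 in controls 5, 6 and 7, against 1.19, -0.03 and 0.35 after GOx-DOX-LGP. The 2 transcripts were thus within 1.19 log2 units of each other in control 5 and the treated tumors. The widest of these gaps was in treated replicate 1, where Slc2a2 was higher. They were far apart in controls 6 and 7. That difference was -5.27 log2 units (exact permutation p = 0.4). With 3 libraries against 3 the smallest p that this test can give is 0.1. With control 5 as the only control both differences changed sign, to 0.88 and 0.59, and without control 5 they were -9.68 and -8.20. Without control 7 they were -3.97 and -3.26, and with the hepatocyte covariate -1.45 and -1.29.

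**Figure D3:**
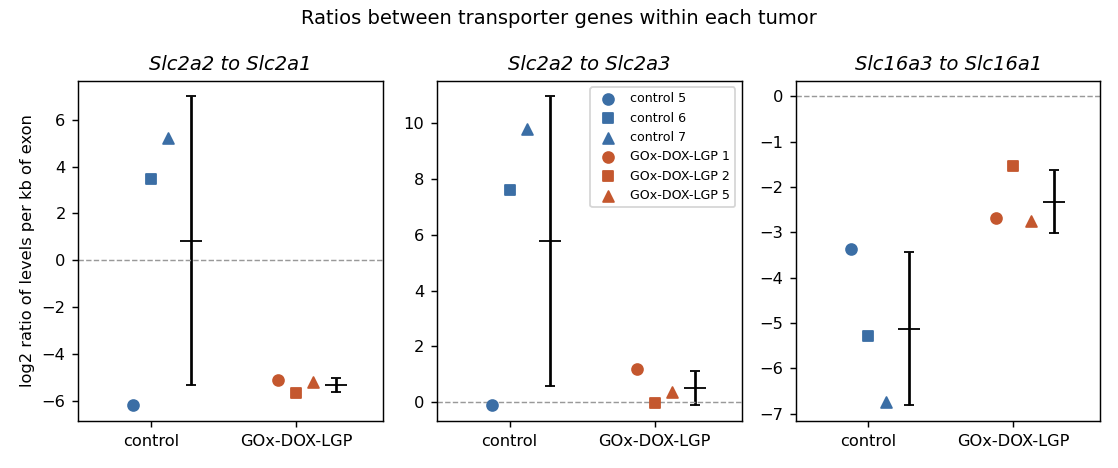
Log2 ratio of 2 transporter genes per kilobase of exon (vertical axes) in each tumor, with the group mean and SD as a horizontal mark and bar (n = 3). Above the dashed line at 0 the first-named gene has the higher level. For Slc2a2 to Slc2a1 only controls 6 and 7, at 3.49 and 5.23, lie above 0.

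The other Slc2a genes carry urate, fructose or glucose in more restricted settings. Slc2a9 (GLUT9, ENSMUSG00000005107, chromosome 5, 38349273 to 38503143, minus strand) is a urate transporter of liver and kidney. It was at 9.34, 61.5 and 95.2 CPM in controls 5, 6 and 7, against 9.84, 14.3 and 10.7 CPM after GOx-DOX-LGP, so that controls 6 and 7 were high and control 5 was just below the treated tumors. The log2 fold change was -2.25 (SE 0.78, unadjusted p = 0.0271, adjusted p = 0.247, edgeR), with -2.72 without control 5 (adjusted p = 0.000219), 0.33 with control 5 as the only control and -0.35 with the hepatocyte covariate. Its log2 ratio to the summed hepatocyte markers ranged over 4.77 log2 units, from -11.3 in controls 6 and 7 to -6.51 in control 5, much wider than that of Slc2a2. Slc2a9 was therefore still measured where hepatocyte markers were low.

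Slc2a5 (GLUT5, ENSMUSG00000028976, chromosome 4, 150119283 to 150144169, plus strand) carries fructose. It gave 3, 112 and 156 counts in controls 5, 6 and 7, against 9, 2 and 3 counts in treated replicates 1, 2 and 5. It was at or near the floor in all tumors except controls 6 and 7, where it reached 9.50 and 16.8 CPM, and it did not pass the count filter. Its ratio to the hepatocyte markers ranged over 1.52 log2 units, with 2 to 9 counts behind 4 of the 6 values. Slc2a8 (GLUT8, ENSMUSG00000026791, chromosome 2, 32972990 to 32982083, minus strand), an intracellular hexose transporter, was at 7.19, 12.3 and 14.2 CPM in controls, against 5.39, 6.96 and 7.28 CPM after GOx-DOX-LGP. Control 5 lay inside the treated range. The log2 fold change was -0.78 (SE 0.34, unadjusted p = 0.0601, adjusted p = 0.302, edgeR), and it was -0.98 without control 5 (adjusted p = 0.0168), -0.12 with control 5 as the only control and -0.34 with the hepatocyte covariate. Under scaling by library totals, which moved the median of all genes from 0.02 to 0.51, it was -0.13.

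Slc2a4 (GLUT4, ENSMUSG00000018566, chromosome 11, 69942539 to 69948188, minus strand) is the insulin-regulated transporter of muscle and fat. It gave 3, 15 and 16 counts in controls, against 1, 2 and 2 counts after GOx-DOX-LGP, and it did not pass the filter. Control 5 and all treated tumors were at or under the floor of 3 counts. The 10 skeletal muscle and adipocyte markers together reached 1.36, 4.33 and 4.95 CPM in controls 5, 6 and 7, against 1.63, 1.86 and 3.54 CPM in treated replicates 1, 2 and 5. The part of such tissue in the Slc2a4 counts was not tested. Of the 4 transporter genes that DESeq2 called, all with lower values after treatment against 9.85% of all genes, Slc2a4 (adjusted p = 0.0313) and Slc2a5 (adjusted p = 0.00302) were not tested in the edgeR fit, and the others were Slc2a2 (adjusted p = 0.00122) and Slc2a9 (adjusted p = 0.0483).

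The lactate transporters differed in how far they varied between tumors. Slc16a3 (MCT4, ENSMUSG00000025161, chromosome 11, 120948480 to 120960868, plus strand), the export transporter, was at 17.5, 3.65 and 1.51 CPM in controls 5, 6 and 7, against 26.4, 47.4 and 23.8 CPM in treated replicates 1, 2 and 5. Every treated tumor lay above every control, with replicate 2 highest and control 5 nearest from below. The means were 7.55 ± 8.68 CPM (SD, n = 3) and 32.5 ± 12.9 CPM (SD, n = 3). The log2 fold change was 2.09 (SE 0.89, unadjusted p = 0.0562, adjusted p = 0.295, edgeR). It was 3.66 without control 5 (SE 0.50, adjusted p = 0.00113), 0.91 with control 5 as the only control (SE 0.44, adjusted p = 0.885) and 1.43 with the hepatocyte covariate (SE 0.40, unadjusted p = 0.00746, adjusted p = 0.544).

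Slc16a1 (MCT1, ENSMUSG00000032902, chromosome 3, 104638668 to 104658462, plus strand), the lactate transporter that works in both directions, was nearly level across tumors on the TMM scale. It was at 151, 119 and 139 CPM in controls 5, 6 and 7, against 142, 114 and 134 CPM after GOx-DOX-LGP, and its highest library was 1.33-fold above its lowest. Raw counts were 3434, 1403 and 1292 in controls 5, 6 and 7, against 2879, 2320 and 2578 after GOx-DOX-LGP, so this evenness rested on the scaling. The groups overlapped, with means of 136 ± 16.0 CPM and 130 ± 14.8 CPM (SD, n = 3 each). The log2 fold change was -0.07 (SE 0.22, adjusted p = 0.864, edgeR), with a 95% confidence interval from -0.60 to 0.47. Its sign depended on the scaling, with 0.43 under library totals, which moved the median of all genes to 0.51. Read against that median, the value under library totals was also slightly below the rest of the genes.

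Bsg (ENSMUSG00000023175, chromosome 10, 79704491 to 79711969, plus strand), the chaperone of both lactate transporters, had the highest mean CPM of the set in both groups, although Slc2a2 exceeded it in CPM in control 7. It was at 336, 413 and 467 CPM in controls, against 441, 431 and 472 CPM after GOx-DOX-LGP. The treated values lay within or just above the control range, and control 5 was lowest. In raw counts every treated tumor was above every control (7669, 4875 and 4338 in controls 5, 6 and 7, against 8918, 8805 and 9072). The overlap therefore rested on the scaling. The log2 fold change was 0.14 (SE 0.28, adjusted p = 0.770, edgeR), with a 95% confidence interval from -0.54 to 0.82. It was 0.06 without control 5, 0.43 with control 5 as the only control (SE 0.20, adjusted p = 0.885), 0.33 with the hepatocyte covariate (SE 0.20, adjusted p = 0.784) and 0.73 under library totals, where the median of all genes was 0.51.

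Per kilobase of exon, the log2 ratio of Slc16a3 to Slc16a1 was -3.37, -5.28 and -6.74 in controls 5, 6 and 7, against -2.69, -1.53 and -2.76 in treated replicates 1, 2 and 5. Slc16a1 had the higher level in all 6 tumors, and the ratio was higher in every treated tumor than in any control. This ratio was added after the levels of both genes were seen, so its separation was known beforehand and its test adds no support. The difference between means was 2.80 log2 units with an exact permutation p of 0.1, the smallest this design allows. It was 1.04 with control 5 as the only control, 3.68 without control 5 and 1.56 with the hepatocyte covariate. The log2 ratio of Slc2a3 to Slc2a1, also added after seeing the data, differed by -0.89 (exact permutation p = 0.3), with overlapping groups. That difference was -1.48 without control 5, -0.49 without control 6, -0.16 with the hepatocyte covariate and 0.28 with control 5 as the only control.

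**Figure D4:**
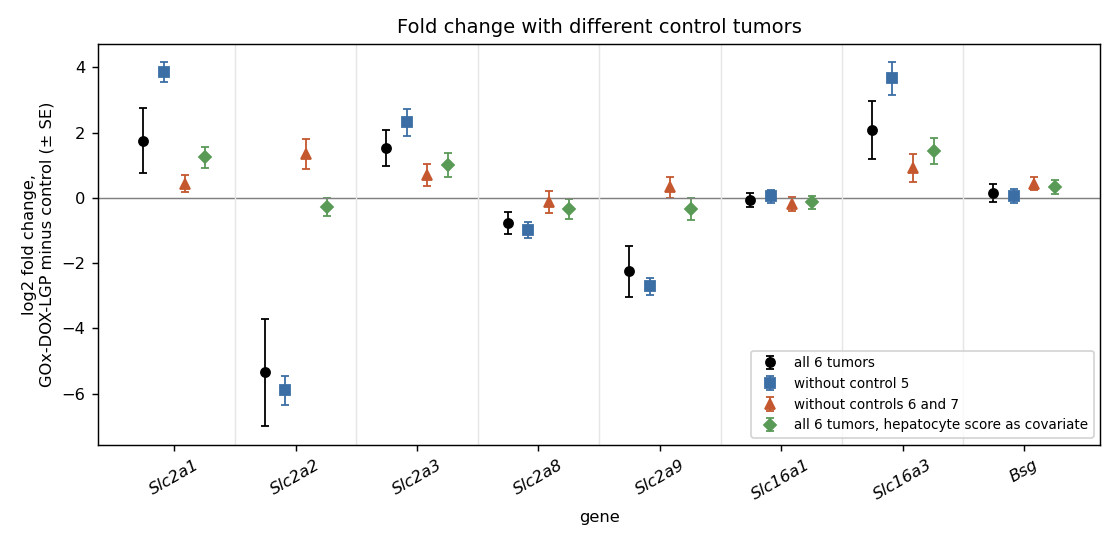
Log2 fold change of the 8 tested transporter genes (vertical axis, GOx-DOX-LGP minus control, with bars of 1 SE) from edgeR fits with all 6 tumors, without control 5, with control 5 as the only control, and with hepatocyte score as covariate. Slc2a2 moves from -5.35 to 1.34 when controls 6 and 7 are left out. Slc2a1, Slc2a3, Slc16a3 and Bsg are above 0 in all 4 fits, with Slc2a1 at 0.43 and Bsg at 0.43 when control 5 is the only control.

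Levels were compared between genes after division by exon length. In the treated tumors the order of mean levels in CPM per kilobase was Bsg at 247 ± 11.7, Slc2a1 at 64.1 ± 12.6, Slc16a1 at 29.4 ± 3.33, Slc16a3 at 6.12 ± 2.43, Slc2a9 at 2.29 ± 0.47, Slc2a8 at 2.04 ± 0.32, Slc2a2 at 1.63 ± 0.53, Slc2a3 at 1.12 ± 0.15, Slc2a5 at 0.068 ± 0.055 and Slc2a4 at 0.024 ± 0.0086 (SD, n = 3). The ranges of the first 5 did not overlap between neighbours. Neighbours from Slc2a9 to Slc2a3 overlapped, as did Slc2a5 and Slc2a4. In the controls only Bsg, at 224 ± 36.1 CPM per kilobase, was apart from the next gene, Slc2a2 at 66.7 ± 69.1, and all later neighbours overlapped. GLUT1 was therefore the leading glucose transporter transcript in every treated tumor and in control 5, at 48.0 CPM per kilobase there, while Slc2a2, at 60.9 and 139 CPM per kilobase, led in controls 6 and 7, where Slc2a1 was at 5.42 and 3.68.

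Other cell types were followed by fixed marker lists, since transporter levels differ between cell types. None of the listed markers was at 0 in all libraries. Counts in brackets give how many listed markers were found in the data, not how many differed between groups. The sum of markers was higher in every treated tumor than in any control for neutrophils (10 of 10 found, 10.5 to 34.4 CPM in controls, against 34.9 to 70.5 CPM after GOx-DOX-LGP) and for T and NK cells (10 of 10, 31.4 to 98.1 CPM and 130 to 196 CPM). They were lower in every treated tumor for endothelial cells (10 of 10, 182 to 516 CPM and 130 to 162 CPM). The groups overlapped for macrophages and monocytes (13 of 13, 964 to 1848 CPM and 1766 to 4584 CPM), B cells (7 of 7, 2.76 to 11.0 CPM and 2.55 to 3.51 CPM), fibroblasts and stellate cells (10 of 10, 1713 to 5855 CPM and 2253 to 7005 CPM) and erythroid cells (7 of 7, 13.2 to 425 CPM and 13.8 to 42.3 CPM). Cholangiocyte markers (6 of 6) reached 7025 CPM in control 5, 556 and 206 CPM in controls 6 and 7, and 4744 to 7130 CPM after GOx-DOX-LGP. Proliferation genes (15 of 15) were at 1409 CPM in control 5, 431 and 120 CPM in controls 6 and 7, and 1011 to 1310 CPM after GOx-DOX-LGP. In these lists control 5 was above controls 6 and 7, as it was for fibroblast and stellate markers (5855 CPM in control 5, 1998 and 1713 CPM in controls 6 and 7). The cholangiocyte sum was not carried by its first 3 genes, of which Krt19 was at 30.7 CPM in control 5, 69.6 and 13.0 CPM in controls 6 and 7, and 42.7 to 71.3 CPM after GOx-DOX-LGP. Likewise, the neutrophil genes S100a8, S100a9 and Csf3r each overlapped between groups although their list's sum did not. The part of these cells in the transporter levels was not tested.

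The genes around the transporters were counted in 5 lists, of which 47 of 63 genes were tested and 0 were called. Of these, 1 gene had a higher value with an unadjusted p under 0.05 (2.87% of all genes did) and 17 a lower one (14.6% of all genes), and the median log2 fold change was -0.13 against 0.02 over all genes. Without overlap of the groups, 6 of the 47 were higher and 1 was lower after GOx-DOX-LGP, against 8.87% and 8.31% of all tested genes. Without control 5 the edgeR test called 33 of the 51 list genes tested (11 higher and 22 lower), where 47.7% of all genes were called. DESeq2 called 21 of 50 (1 higher and 20 lower), where 10.5% of all genes were called.

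Among the other sugar transporters 6 of 15 genes were tested, with 0 higher and 1 lower at an unadjusted p under 0.05 and a median of 0.25, which was 0.53 without control 5, -0.15 without treated replicate 2 and -0.05 with the hepatocyte covariate. The lower one was Slc37a4, which brings glucose 6-phosphate into the endoplasmic reticulum for glucose release, at 11.7, 92.4 and 165 CPM in controls 5, 6 and 7, against 10.7 to 12.8 CPM after GOx-DOX-LGP (log2 fold change -2.89, SE 0.87, adjusted p = 0.247). Control 5 lay within the treated range. Among the other monocarboxylate transporters and their partners 13 of 17 genes were tested, with 0 higher and 7 lower at that p and a median of -2.18. That median was -0.26 in DESeq2 and -0.20 with no count filter, which take in more of the list, -0.30 with the hepatocyte covariate, -1.38 under library totals and 0.24 with control 5 as the only control. The aromatic amino acid transporter Slc16a10 (log2 fold change -3.38) and Slc16a12 (-4.66), a carrier of creatine, were high in controls 6 and 7 only, with control 5 below the treated range. Slc16a9, a carnitine exporter, was the sole gene of the lists that was lower in every treated tumor than in any control, at 0.834, 2.54 and 2.69 CPM in controls 5, 6 and 7 against 0.593, 0.392 and 0.312 CPM in treated replicates 1, 2 and 5 (log2 fold change -2.18, SE 0.58, adjusted p = 0.247). These levels are low, and 8.31% of all tested genes were lower without overlap.

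The enzymes that trap and release glucose had 11 of 12 genes tested, with 1 higher and 4 lower at an unadjusted p under 0.05 and a median of 0.12, which ran from -0.06 to 0.57 over the alternatives. Ketohexokinase (Khk), which phosphorylates fructose, was at 6.32 CPM in control 5, 203 and 378 CPM in controls 6 and 7, and 9.16 to 14.4 CPM after GOx-DOX-LGP (log2 fold change -4.00, SE 1.28, adjusted p = 0.247). Gckr (log2 fold change -6.37) was likewise high in controls 6 and 7 and lowest in control 5. The higher one was hexokinase 3 (Hk3), which is known from myeloid cells, at 11.1, 6.11 and 4.52 CPM in controls 5, 6 and 7, against 13.9, 18.7 and 20.1 CPM after GOx-DOX-LGP. Every treated tumor lay above every control for Hk3 (log2 fold change 1.27, SE 0.39, adjusted p = 0.247). That held for 2 of the 11 tested genes of this list and for 8.87% of all tested genes.

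Of the lactate enzymes and receptor, 6 of 7 genes were tested, with 0 higher and 1 lower at that p and a median of 0.13, which was -0.18 in DESeq2 and -0.13 with no count filter. The lower one was Ldhd, the D-lactate dehydrogenase (log2 fold change -3.67, SE 1.06), at 5.97 CPM in control 5, 106 and 141 CPM in controls 6 and 7 and 5.44 to 7.86 CPM after GOx-DOX-LGP. The regulators of the transporters had 11 of 12 genes tested, with 0 higher and 4 lower and a median of -0.19, which ran from -0.79 to 0.40 over the alternatives. Hnf4a, a hepatocyte nuclear factor, was at 4.52, 717 and 1114 CPM in controls 5, 6 and 7, against 6.56 to 19.2 CPM after GOx-DOX-LGP (log2 fold change -5.63, SE 1.75). The glucose-sensing factor Mlxipl (-6.62), the liver factor Foxa2 (-5.05) and the hypoxia-inducible factor Epas1 (-2.79) also had high values in controls 6 and 7 only. These 4 regulators had an adjusted p of 0.247 each, and for each of them control 5 lay inside or below the treated range.

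The 3 tested genes whose centred log2 CPM ran closest to that of each transporter over the 6 libraries were listed as a description. For Slc2a2 they were Gpld1, Mug1 and Dpys, at root-mean-square differences of 0.13, 0.14 and 0.16 log2 units, where Slc2a2 itself varied by 2.97 around its mean. Mug1, for instance, was at 36.8 CPM in control 5, 4100 and 7275 CPM in controls 6 and 7, and 67.5 to 134 CPM in the treated tumors. For Slc2a1, which varied by 1.77, they were Il11 (0.12), Mmp13 (0.12) and Snai1 (0.25), with Mmp13 at 31.9, 3.05 and 2.15 CPM in controls 5, 6 and 7, against 38.1 to 54.2 CPM after GOx-DOX-LGP. The genes closest to Slc2a3 were Serpinb6b (0.09), Ptpn5 (0.10) and Cd14 (0.11), against its own variation of 1.07. Cd14, a co-receptor of monocytes and macrophages, was at 51.7, 24.8 and 10.7 CPM in controls 5, 6 and 7, against 75.4 to 98.3 CPM after GOx-DOX-LGP. Cd14 was picked for its likeness to Slc2a3, so its lack of overlap follows from that choice.

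Those closest to Slc16a3, which varied by 1.72, were Adm (0.19), Ndufa4l2 (0.23) and Ang2 (0.24). Adm, which encodes adrenomedullin, was at 9.26, 2.20 and 1.18 CPM in controls 5, 6 and 7, against 16.4, 25.8 and 14.9 CPM in treated replicates 1, 2 and 5. Ndufa4l2 was at 18.9, 25.2 and 12.7 CPM in those treated replicates. Both were picked for their likeness to Slc16a3, so the order they share with it follows from that choice. Adm and Ndufa4l2 are textbook targets of hypoxia-inducible factors, and the part of hypoxia in these levels was not tested. For Slc16a1 and Bsg, nearly level on the TMM scale, the closest were Ttc13, Nfkbib and Mboat7 (0.036 to 0.043) and Mea1, Itgb1bp1 and Mob3c (0.038 to 0.062). Slc16a1 and Bsg themselves varied by only 0.14 and 0.16, so closeness there says little. These genes share the same 6 libraries, 2 of which stand apart. Il11, Ptpn5 and Ang2 were under the floor in control 7 (0.215, 0.108 and 0 CPM), and Ang2 also in control 6 (0.170 CPM). This limits what their closeness can show.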

How the data were processed

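RNA-seq libraries (KAPA mRNA HyperPrep) of 6 HCA-1 tumors, 3 from untreated mice and 3 from mice given GOx-DOX-LGP, were analysed from 2 deposited tables. The authors deposited raw read counts per gene for 55536 Ensembl genes without normalization, and a signal table of 34685 genes in which the deposited values are the same counts divided by size factors between 0.532 and 1.32. The submitters' processing notes name Trimmomatic 0.38, HISAT2 2.1.0 and featureCounts 2.0.0, whereas the study's methods name TopHat and HTSeq, so the aligner and counter are uncertain. Genome build, annotation and strand setting are not given in the sources used here. Reads of near-identical or overlapping genes may be assigned differently by these tools.

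The raw counts were fitted in edgeR 4.0.16 (R 4.3.3) with filterByExpr, TMM scaling and the quasi-likelihood test, control against GOx-DOX-LGP, with Benjamini-Hochberg adjustment over all tested genes and a threshold of 0.05. Scripts were tested on simulated data. Ratios within a library used log2 of counts plus 0.5, with two-sided exact permutation tests (scipy 1.17.1). Ratios to summed markers and the genes closest in pattern were given with no test. Levels per kilobase used the exon union of GENCODE M21 on GRCm38, which holds all 55536 identifiers, and may differ from the annotation of the authors. Promoters came from RefSeq (GRCm38.p6), with 7 of 10 transporter genes matched. Library totals ranged from 15529940 to 18401178 counts, and limits of 3 counts cover counting error only. No columns of per-sample values were left unused.

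Alternatives were DESeq2 1.42.0, limma 3.58.1 voom with and without sample weights, other scalings and count filters, a hepatocyte-marker covariate, other pseudocounts, the deposited normalized values for ratios, and leaving out libraries. The ratios of Slc16a3 to Slc16a1, of Slc2a3 to Slc2a1 and to hepatocyte markers, and ratios without controls 6 and 7, were added after seeing the data. Members, gene lists and tests were chosen with earlier results of these data known. Genes named were the 10 transporter genes, up to 4 genes per pathway list by smallest unadjusted p (under 0.05), up to 3 per marker list in list order, and for Slc2a1, Slc2a2, Slc2a3, Slc16a1, Slc16a3 and Bsg the 3 tested genes with the smallest root-mean-square difference of centred log2 CPM. Some genes that this rule names are not reported here.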

Additional observations from a re-analysis of the deposited data

How the results depend on the processing

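Under edgeR, 0 genes were called with all 6 libraries, and leaving out each library in turn gave between 0 and 7745 called genes, 0 and 8 transporter genes and 0 and 33 genes of the pathway lists, with the highest values without control 5 and 0 without any other library (696 to 1316 genes at an unadjusted p under 0.05). The edgeR fit without control 5 called 47.7% of all genes and 33 of the 51 pathway genes tested. DESeq2 called 1739 genes (10.5%), 4 of the 10 transporter genes and 21 of the 50 pathway genes tested. Voom with sample quality weights called 9254 genes (60.2%), 6 of the 8 transporter genes tested and 36 of the 47 pathway genes tested. With other scalings, other filters, the hepatocyte covariate, voom without weights or control 5 as the only control, 0 genes were called, and between 921 and 3784 genes had an unadjusted p under 0.05. The cause of the difference between tools was not tested. With control 5 as the only control, the group difference turned to 0.88 for Slc2a2 to Slc2a1, 0.59 for Slc2a2 to Slc2a3 and 0.28 for Slc2a3 to Slc2a1, and the log2 fold change turned to 1.34 for Slc2a2 and 0.33 for Slc2a9. Slc16a1, near 0 throughout, changed sign with voom weights (0.17), library totals (0.43), the upper quartile (0.11), and no count filter (0.00097), and leaving out each library in turn gave -0.16 to 0.043, with values above 0 without control 5 and without GOx-DOX-LGP replicate 2. Slc2a1, Slc2a3, Slc2a8, Slc16a3 and Bsg kept their sign in all alternatives run. Library totals moved the median of all genes to 0.51, the upper quartile to 0.19 and no count filter to 0.19. No paired analysis was possible because the groups share only replicate number 5. Slc2a4 and Slc2a5 had 3 counts or fewer in 4 and 3 of the 6 libraries, which limits what depth can show for them.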
